A study of Bos indicus x Bos taurus with 11 samples.

Results

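The genes described here are the annotated long noncoding RNA (lncRNA) genes on the 29 bovine autosomes, measured by total RNA sequencing of cultured fetal skin fibroblasts. Every row of the deposited count table with the biotype lncRNA and an autosomal position was taken, except 5 names set aside by the rule: H19, MEG3, MEG8, LOC112444897 and LOC112444889. As autosomal lncRNA rows, 4 of the 5 names were present. This left 2916 genes of 27398 rows in the table. Of these, 2900 carried only a locus number of the LOC kind and 16 had a symbol. The rule itself used annotation alone and no measured value, though it was set with earlier results of these data known.

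The study compared primary skin fibroblasts of 5 control fetuses (CON_B, here called control), conceived by artificial insemination, with those of 6 fetuses with large offspring syndrome (LOS), an overgrowth condition of cattle. The LOS fetuses came from assisted reproductive technologies, and their body weight lay above the 97th centile of the controls. All 11 were day 105 F1 hybrids of 2 cattle breeds, Brahman (an indicine breed) and Angus (a taurine breed), so both groups shared the cross, the stage and the culture medium. The controls were 2 females and 3 males, and the LOS group was 3 females and 3 males. Each library came from the cells of 1 fetus, and the groups differed in both conception method and overgrowth, which cannot be told apart here.

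LncRNAs are transcripts longer than small RNAs that carry no evident protein-coding frame. Some act in the nucleus on chromatin or on nuclear bodies, some act in the cytoplasm by pairing with other RNAs, some are precursors whose introns or exons release small nucleolar RNAs (snoRNAs) or microRNAs, and for many no role is known. They often start beside, or lie within, protein-coding genes, some share a promoter region with a neighbour transcribed the other way, and several imprinted domains contain one. Their steady-state levels are in general lower and more tissue-restricted than those of mRNAs.

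The libraries held 12084724 to 19297095 counts each, assigned to rows as estimated (expected) counts. All 13 fibroblast markers examined were at or above 1 CPM, the count scaled to library size, with summed levels of 61471 to 77632 CPM in control and 64955 to 77337 CPM in LOS libraries. Markers of other cells were lower: leukocyte markers summed to at most 1.82 CPM, muscle markers to 1.55 CPM, endothelial markers to 16.5 CPM and keratinocyte markers to 24.7 CPM in any library. Pericyte markers, some of which fibroblasts can share, summed to 124 to 273 CPM in control and 134 to 279 CPM in LOS libraries. Melanocyte and Schwann cell markers summed to 45.2 to 330.5 CPM in control and 56.1 to 131.7 CPM in LOS libraries. Rows were present for 6 of 7 leukocyte, 3 of 6 muscle and 6 of 7 endothelial markers. They were present for 7 of 8 keratinocyte and 4 of 8 melanocyte and Schwann cell markers. The sums leave out the absent ones. In such bulk samples, fewer cells of a type and less RNA per cell cannot be told apart.

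Most lncRNA genes were near the limit of detection. The median of their mean levels was 0.0742 CPM, against 10.6 CPM for the autosomal protein-coding genes. A mean of at least 1 CPM was reached by 456 of the 2916 lncRNA genes (15.6%), against 72.4% of protein-coding genes. Of the lncRNA genes, 83 reached 10 CPM and 11 reached 100 CPM, whereas 1614 lay under 0.1 CPM. Counts were present in all 11 libraries for 890 of them and in 1 library only for 445, and 2010 never reached 10 counts in any library. CPM values are not divided by transcript length, so the order of genes by CPM is not an order of molecules per cell. The filter on low counts left 654 lncRNA genes for testing (22.4%), against 76.2% of autosomal protein-coding genes, and the statements on group differences hold for those 654.

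The lncRNA counts were concentrated in few genes. The 1 gene with the most counts held 19.2% of all lncRNA counts, the first 2 together 30.2%, the first 12 together 54.6% and the first 100 together 82.1%. In each library the 2916 genes held between 0.622% and 0.819% of all counts. This share was 0.721% ± 0.0886 (SD, n = 5) in controls and 0.700% ± 0.0712 (SD, n = 6) in LOS, and the groups did not differ beyond the spread between fetuses (two-sided exact permutation test, p = 0.647, smallest possible p = 0.00216). The sign of the small difference turned when control 2 or control 4 was left out, to 0.00395 and 0.000798 percentage points.

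The number of lncRNA genes at or above 1 CPM was 457, 485, 430, 484 and 433 in the 5 controls, and in LOS libraries it ran from 411 through 449. Controls 1, 2 and 4 lay above every LOS library, and controls 3 and 5 lay within the LOS range. The mean was 458 ± 26.5 (SD, n = 5) in controls and 431 ± 15.6 (SD, n = 6) in LOS (two-sided exact permutation test, p = 0.0758). At 5 CPM the means were 145 ± 5.40 (SD, n = 5) and 136 ± 5.38 (SD, n = 6), with an exact permutation p of 0.0368. Leaving out control 3 or control 5 gave an exact permutation p of 0.0381 at 1 CPM in each case. Leaving out any other library gave an exact permutation p from 0.0635 to 0.152, the largest without control 2 or control 4. At 0.1 CPM the exact permutation p was 0.807.

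Depth moved with these values. Controls 2 and 4 and LOS 6 were the deepest libraries, and over the 11 libraries the total count and the lncRNA share had a Pearson r of 0.734 (permutation p = 0.0130, adjusted p = 0.0218 over 3 relations) and a Spearman rho of 0.373 (permutation p = 0.260, adjusted p = 0.260). Without the 2 libraries farthest from the median depth r was 0.519. For the number of genes at 1 CPM, r was 0.723 (permutation p = 0.0145, adjusted p = 0.0218) and rho was 0.391 (permutation p = 0.237, adjusted p = 0.260), and without the 2 farthest libraries r was 0.713. The third relation, with the median log2 deviation of the 654 tested lncRNA genes, had an r of 0.631 (permutation p = 0.0370, adjusted p = 0.0370) and a rho of 0.409 (permutation p = 0.218, adjusted p = 0.260), with an r of 0.632 without the 2 farthest libraries. The part of depth in the group values was not tested.

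**Figure D1:**
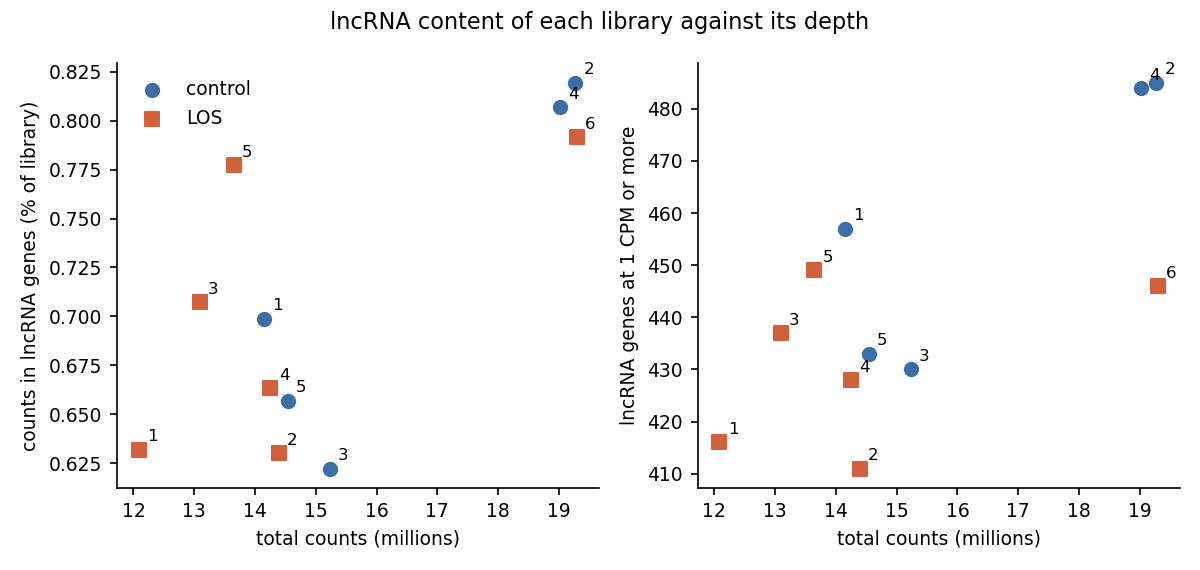
Percent of each library's counts in the 2916 lncRNA genes (left) and number of those genes at 1 CPM or more (right), against the library's total count, with 5 control (circles) and 6 LOS (squares) libraries labelled by replicate. Controls 2 and 4 and LOS 6 lie to the right, and the LOS libraries span 411 to 449 genes.

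The most abundant lncRNA gene was LOC104976804 (chr29:43609494-43616100, plus strand, ARS-UCD1.2 build), which lies 6166 bp from the protein-coding gene FRMD8. It was at 1231, 1598, 1271, 1407 and 1112 CPM in the controls and between 968 and 1745 CPM in LOS libraries, with an LOS median of 1387 CPM. Both extremes belonged to the LOS group and the groups overlapped. The means were 1324 ± 186 CPM (SD, n = 5) and 1371 ± 258 CPM (SD, n = 6), a log2 fold change of 0.05 ± 0.15 (SE) with an edgeR adjusted p of 0.978.

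The second gene, LOC104976281 (chr29:43628606-43633947, plus strand), followed on the same chromosome and strand. Its control values were 538, 790, 451, 806 and 801 CPM, and its LOS values ran from 590 through a median of 805 to 1350 CPM. LOS 2, LOS 5 and LOS 6 lay above every control, and the other 3 LOS libraries within the control range. Its log2 fold change was 0.36 ± 0.23 (SE; edgeR adjusted p = 0.932).

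LOC107131356 on chromosome 4 starts in the opposite direction 87 bp from MKLN1, which encodes the intracellular protein muskelin. It was at 394 ± 44.2 CPM (SD, n = 5) in controls and 406 ± 56.6 CPM (SD, n = 6) in LOS. LOC101904377 on chromosome 25 likewise lies 87 bp from GUSB, the gene of lysosomal beta-glucuronidase, in a divergent arrangement, and it was at 193 ± 20.2 CPM (SD, n = 5) and 185 ± 14.9 CPM (SD, n = 6). LOC100848689 on chromosome 15 spans the row of the microRNA gene MIR125B-1, and it was at 219 ± 41.3 CPM (SD, n = 5) and 182 ± 50.8 CPM (SD, n = 6). None of these 3 passed the test between groups.

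TUG1 (chr17:69863342-69871056, plus strand), a conserved lncRNA found in both nucleus and cytoplasm, was the most abundant member with a symbol. It was at 176, 175, 153, 171 and 135 CPM in controls and from 142 through a median of 150 to 171 CPM in LOS libraries. The LOS values all fell within the control range. The log2 fold change was -0.08 ± 0.09 (SE; edgeR adjusted p = 0.939).

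The remaining abundant genes differed in how much they varied between fetuses. LOC101907577, which lies 17800 bp from CDKN2B, a gene for an inhibitor of the cell cycle kinases, held to 136 ± 18.1 CPM (SD, n = 5) in controls and 130 ± 6.28 CPM (SD, n = 6) in LOS. LOC100847604, 3018 bp from OIP5, was at 162 ± 12.4 CPM (SD, n = 5) and 153 ± 10.4 CPM (SD, n = 6). By contrast, LOC112447358 on chromosome 7 ran from 97.7 to 267 CPM among controls and between 71.2 and 281 CPM among LOS libraries, with the top values in control 2 and LOS 6. LOC101906397, which overlaps GLDC (glycine decarboxylase) on the opposite strand, spanned 51.2 to 165 CPM in controls, against 106 to 219 CPM in LOS. LOC100847759, which contains 3 snoRNA rows and starts 481 bp from ZNFX1, was at 89.2 ± 17.5 CPM (SD, n = 5) and 102 ± 23.6 CPM (SD, n = 6). LOC100847818 on chromosome 12 was at 125 ± 33.6 CPM (SD, n = 5) and 111 ± 33.4 CPM (SD, n = 6). The 12 most abundant genes all had overlapping groups.

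**Figure D2:**
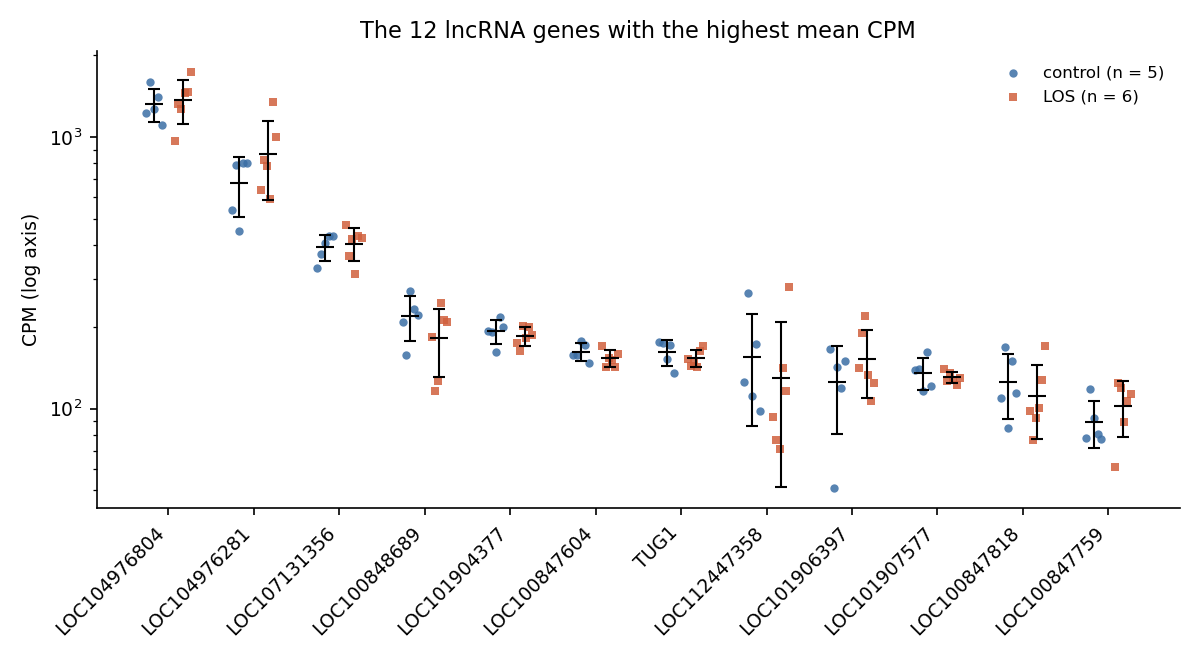
CPM on a log axis of the 12 lncRNA genes with the highest mean level, with 1 point per library (circles, 5 control; squares, 6 LOS) and the mean ± SD in black. Control and LOS points overlap for each gene, and LOC112447358 and LOC101906397 spread more widely than LOC101907577.

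No lncRNA gene passed the test between LOS and control fibroblasts at an adjusted p under 0.05. In edgeR's quasi-likelihood test, with sex as a covariate, 0 of the 654 passed (background over all 16946 genes tested: 0.0%), and the smallest adjusted p of a member was 0.932. DESeq2 called 0 of them (5 of all genes) and limma voom 0 (0 of all genes). At an unadjusted p under 0.05 there were 40 members (6.12%) against 4.44% of all genes tested. Of these 40, 30 were lower in LOS (4.59% of members, background 1.95%) and 10 higher (1.53%, background 2.48%). These counts moved with single libraries. Without LOS 1 there were 67 of 645 members, 23 of them higher, against 1826 of 16770 genes, and the excess over the background was gone. Without control 2 there were 44 of 687, 19 of them higher, against 1126 of 17417 genes, again with no excess. Without control 4 there were 29 of 639, 10 of them higher, against 455 of 16756 genes. Without LOS 6 there were 31 of 642, 6 of them higher, against 452 of 16823 genes. In both, and with each of the other libraries left out in turn, the members' share stayed above the background. A p that misses the threshold does not show that a gene was at equal level in both groups.

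The lncRNA genes leaned towards lower values in LOS. Of the 654, 405 had a negative log2 fold change (61.9%, background 50.2%), and their median was -0.09 against 0.00 for all genes tested. Protein-coding genes of low level leaned the same way. At a mean log2 CPM under 0, 64.7% of 167 lncRNA genes and 59.4% of 505 protein-coding genes were lower. From 0 to 1 the shares were 64.1% of 198 and 59.0% of 715, and from 1 to 2 they were 64.8% of 125 and 57.6% of 898. From 2 to 4 the lncRNA share was the smaller one, at 54.8% of 62 against 55.9% of 1425 from 2 to 3, and at 52.8% of 53 against 54.8% of 1995 from 3 to 4. Above a log2 CPM of 4, the shares were 55.1% of 49 and 44.3% of 6928. These shares describe the lists, and no test was made of them.

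The lean moved with particular libraries. The tested lncRNA genes' median deviation from their own mean, in log2 CPM, was 0.23 in control 2 and 0.19 in control 4, and between -0.12 and 0.08 in the other 9 libraries. Without control 2, 378 of 687 tested members were lower in LOS and the median log2 fold change was -0.04. Without control 4, 370 of 639 were lower and the median was -0.06. Of 10 proliferation markers, 9 had negative log2 fold changes and none passed the test (median log2 fold change -0.41; summed level 167 to 319 CPM in control and 129 to 411 CPM in LOS, none at 0 throughout). The 3 tested melanocyte and Schwann cell markers also had negative values (median -1.03), as did the 3 tested endothelial markers (median -0.40) and the 3 tested keratinocyte markers (median -0.03), and none passed the test. The part of depth, proliferation or other cells in the lean was not tested.

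Variation between fetuses was wider for lncRNA genes as a group. The median biological coefficient of variation, the edgeR estimate of spread beyond counting noise, was 0.317 for the 654 members and 0.194 for protein-coding genes. Part of this gap goes with level. At a log2 CPM under 0 the medians were 0.384 for lncRNA and 0.496 for protein-coding genes, and from 1 to 2 they were 0.296 and 0.316. From 2 to 3 the order turned, with 0.255 for lncRNA and 0.248 for protein-coding genes. The medians were 0.248 and 0.196 from 3 to 4, and 0.221 and 0.159 above 4.

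**Figure D3:**
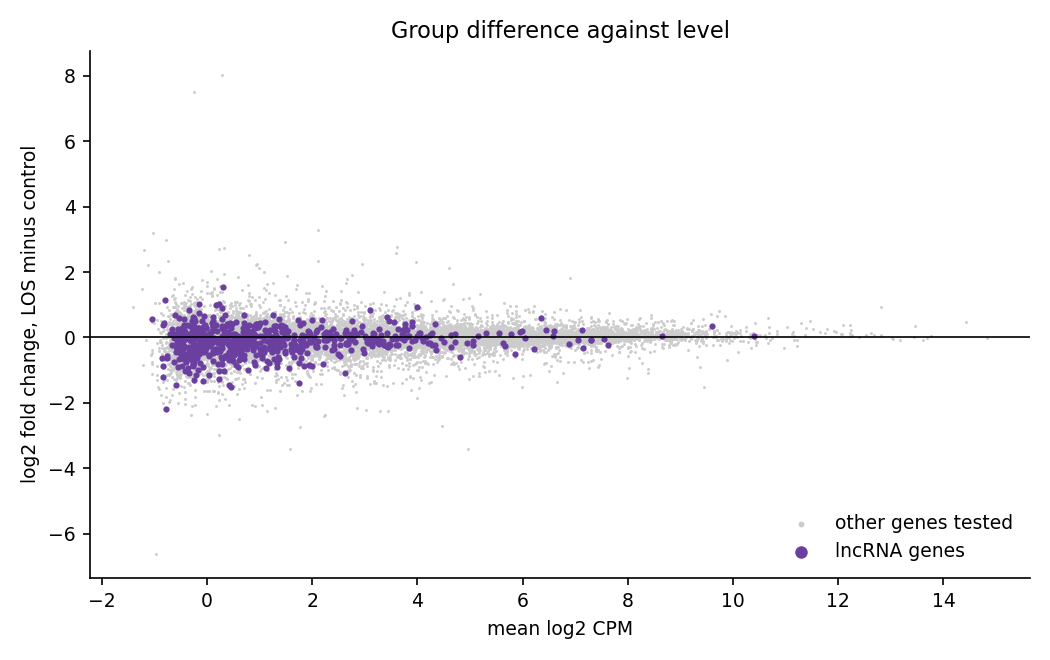
Log2 fold change, LOS minus control, against mean log2 CPM for each gene tested, with the 654 lncRNA genes in purple and the other genes in grey. Most lncRNA genes lie at the low end of the axis, and 405 of the 654 lie below 0.

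The lncRNA gene with the smallest unadjusted p among those lower in LOS was LOC112447469 (chr7:70694878-70706434), which starts 146 bp from EBF1, a transcription factor gene of B-cell and mesenchymal lineages. Its controls were at 1.35, 0.986, 0.882, 1.37 and 0.564 CPM and its LOS libraries ran from 0.290 through a median of 0.388 to 0.633 CPM. Control 5 alone fell within the LOS range. The log2 fold change was -1.31 ± 0.33 (SE; edgeR unadjusted p = 0.0021, adjusted p = 0.932). EBF1 itself had a log2 fold change of -0.42, and the 2 genes had an r of 0.275 over the 11 libraries.

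LOC112445943 (chr3:14946635-14949836) starts 34 bp from GON4L, a nuclear regulator of transcription. It was at 6.00, 5.57, 3.53, 7.71 and 6.49 CPM in controls and from 2.32 through a median of 3.35 to 4.17 CPM in LOS libraries. Control 3 was the only control within the LOS range. Its log2 fold change was -0.82 ± 0.21 (SE; edgeR unadjusted p = 0.0028, adjusted p = 0.932), while that of GON4L was -0.02.

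In 5 of the 654 lncRNA genes (0.765%, background 0.23%) the 2 groups did not overlap, with either direction counted in both shares. In all 5 every LOS value lay below every control value, and in none did every LOS value lie above. No background was taken for each direction. LOC107131429, which overlaps ZNF428 on the opposite strand, was at 1.55, 1.58, 1.63, 2.11 and 1.90 CPM in controls and from 0.806 through 0.904 to 1.48 CPM in LOS. LOC112442228, which starts 65 bp from ZBTB45, was at 1.75, 1.58, 1.56, 1.62 and 2.26 CPM in controls and from 0.950 through 1.08 to 1.31 CPM in LOS. The gap between the groups was narrow in both, and LOS 1 was the highest LOS library in each.

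LOC101905734, 42341 bp from PDE6D, was at 1.08, 1.87, 1.02, 1.37 and 1.27 CPM in controls and from 0.475 through 0.779 to 0.981 CPM in LOS. LOC112449052, 5662 bp from USPL1, was at 1.01, 1.08, 0.678, 1.62 and 0.705 CPM in controls and from 0.290 through 0.483 to 0.574 CPM in LOS. The fifth gene, LOC101907843, overlaps FURIN, the gene of a proprotein-cleaving protease, on the opposite strand, and is named here because its groups did not overlap. It was at 1.42, 1.23, 1.63, 1.62 and 1.2 CPM in controls and from 0.362 through 0.817 to 1.16 CPM in LOS. The log2 fold changes of the 5 genes ran from -1.15 to -0.68, each with an edgeR adjusted p of 0.932.

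The other lower genes chosen by p were also mostly at a few CPM. LOC107132524, 38694 bp from PRMT8 (an arginine methyltransferase gene), had a log2 fold change of -1.51 ± 0.45 (SE), with control 2 highest at 4.14 CPM. LOC104973485, opposite in strand to the overlapping dynamin gene DNM1, went from 1.55 ± 0.306 CPM (SD, n = 5) in controls to 0.759 ± 0.395 CPM (SD, n = 6) in LOS. LOC112446012, which overlaps TCEANC2 on the same strand, was at 2.98 ± 0.610 CPM (SD, n = 5) and 1.95 ± 0.433 CPM (SD, n = 6). LOC112442227 was at 6.50 ± 1.41 CPM (SD, n = 5) and 4.59 ± 0.608 CPM (SD, n = 6). All 6 LOS libraries lay below the control median in each of the 10 genes named as lower by p. These genes were chosen on the same values, so this position follows largely from the choice.

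Among genes higher in LOS, the smallest unadjusted p was that of LOC101904714 (chr14:41995966-41999639), which overlaps IL7, the gene of the cytokine interleukin 7, on the opposite strand. It was at 0.540, 0.690, 0.475, 0.589 and 0.352 CPM in controls and from 0.574 through a median of 1.37 to 2.90 CPM in LOS, which is 5 to 55 counts per library. LOS 1 alone fell within the control range. The log2 fold change was 1.55 ± 0.43 (SE; edgeR unadjusted p = 0.0041, adjusted p = 0.932), and that of IL7 was 0.52.

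LOC112443226 (chr21:7981665-7997827) lies inside IGF1R, the gene of the growth-promoting insulin-like growth factor 1 receptor, on the same strand. It was at 9.04, 11.5, 9.36, 7.66 and 6.27 CPM in controls and from 10.3 through a median of 12.4 to 15.0 CPM in LOS. Control 2 alone fell within the LOS range. The log2 fold change was 0.52 ± 0.17 (SE; edgeR unadjusted p = 0.011, adjusted p = 0.932). IGF1R had a log2 fold change of 0.50 and spanned 284 to 478 CPM in controls, against 396 to 657 CPM in LOS. Over the 11 libraries the pair had an r of 0.772 (adjusted permutation p = 0.139). Reads of 2 overlapping rows on 1 strand cannot be told apart where their exons coincide.

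SNHG4, a host gene of snoRNA and one of the symbol-bearing members, was at 3.51, 2.61, 2.37, 2.95 and 2.89 CPM in controls and from 3.24 through a median of 3.72 to 4.86 CPM in LOS. Control 1 alone fell within the LOS range. The log2 fold change was 0.43 ± 0.17 (SE; edgeR unadjusted p = 0.025, adjusted p = 0.932). LOC100848766, opposite in strand to the overlapping homeobox gene HOXB3, was at 2.60 ± 0.406 CPM (SD, n = 5) in controls and 3.71 ± 0.824 CPM (SD, n = 6) in LOS, with a log2 fold change of 0.54 ± 0.19 (SE). LOC100848469 was at 3.58 ± 0.397 CPM (SD, n = 5) and 5.16 ± 1.57 CPM (SD, n = 6), with LOS 6 highest at 7.97 CPM. LOC107132793, opposite in strand to the overlapping TAGAP, had a log2 fold change of 0.50 ± 0.22 (SE), which was 0.30 without control 1, the lowest library at 2.36 CPM.

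The remaining 4 of the 10 higher genes were LOC101907986, LOC101908034, LOC101905779 and LOC107133128. Their mean levels lay between 0.262 and 1.12 CPM in controls and between 0.622 and 1.8 CPM in LOS, and their groups overlapped.

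**Figure D4:**
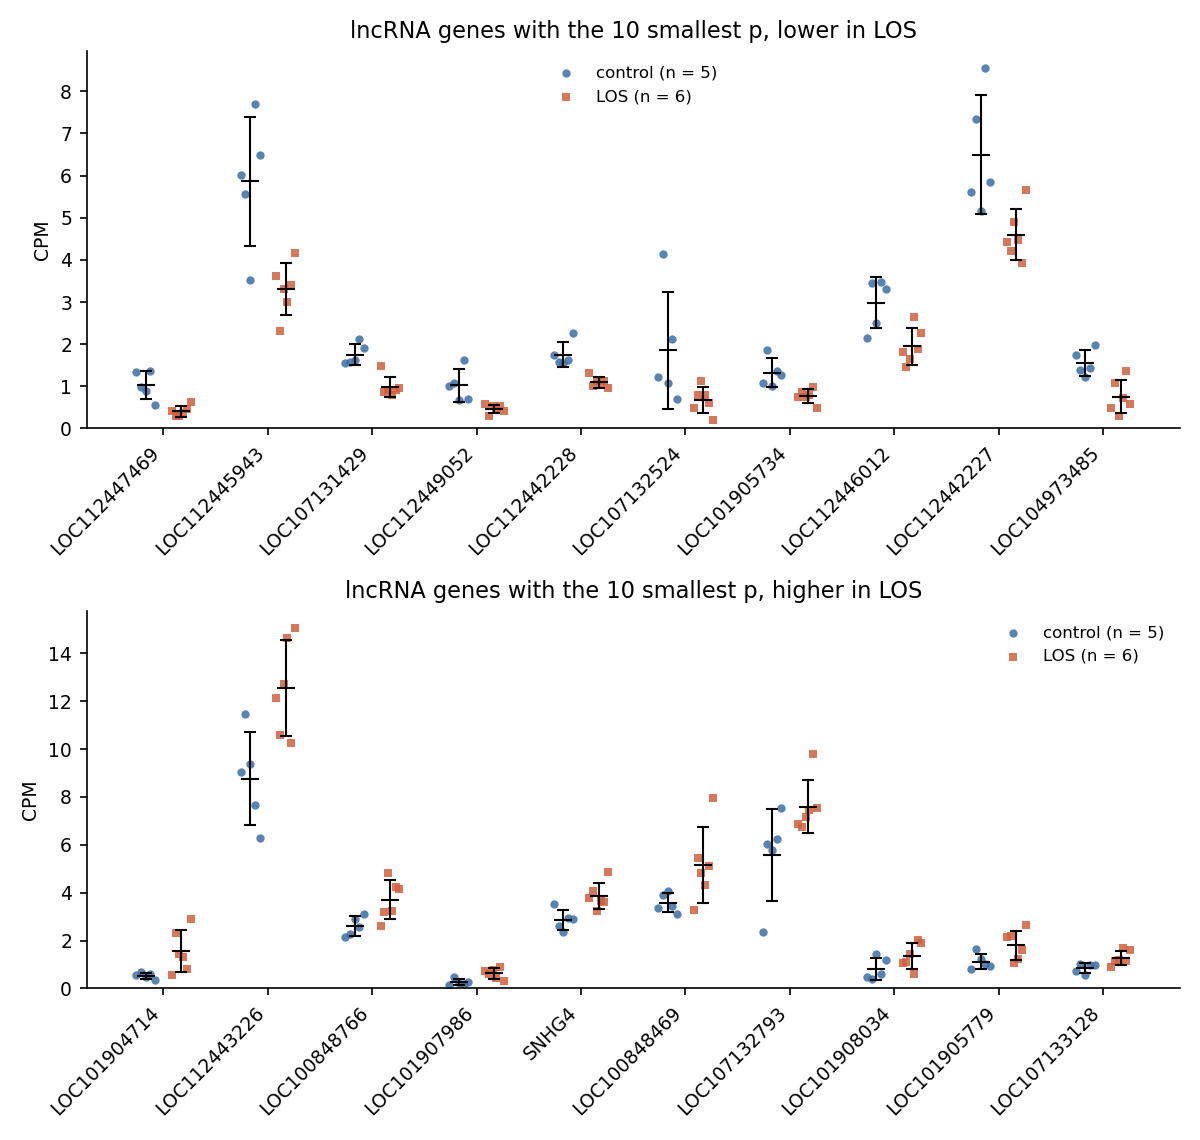
CPM in each library (circles, 5 control; squares, 6 LOS; mean ± SD in black) of the 10 lncRNA genes with the smallest unadjusted p in each direction, on axes that start at 0. Groups are apart for LOC107131429, LOC112449052, LOC112442228 and LOC101905734 and overlap for the other genes shown, and none passed at an adjusted p under 0.05.

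Of a list of lncRNAs with known roles, 7 were members and 6 could be tested. None passed. DANCR, an lncRNA studied in progenitor cell differentiation, was at 9.37 ± 1.31 CPM (SD, n = 5) in controls and 7.99 ± 1.67 CPM (SD, n = 6) in LOS. SNHG3 was at 6.71 ± 1.01 CPM (SD, n = 5) and 5.78 ± 1.67 CPM (SD, n = 6), and SNHG12 was at 12.8 ± 3.39 CPM (SD, n = 5) and 16.4 ± 3.98 CPM (SD, n = 6), both of them hosts of snoRNA. MEG9, of an imprinted domain on chromosome 21, was at 1.31 ± 0.596 CPM (SD, n = 5) and 1.32 ± 0.512 CPM (SD, n = 6), and its small fitted log2 fold change of 0.10 turned sign without control 1, control 3, LOS 1 or LOS 5. AIRN, the antisense RNA that silences IGF2R on the paternal allele in mouse, was too low to test, at no more than 0.0675 CPM in controls and 0.246 CPM in LOS.

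Genes that contain small RNA genes were higher in level than the members as a whole but did not lean to either side. Of 23 members that span at least 1 snoRNA row, 20 were tested, with 10 higher and 10 lower in LOS, 0 called and a median of -0.02 on the log2 scale. The median of their mean levels was 8.69 CPM. Of 8 that span a microRNA row, 6 were tested, 4 higher and 2 lower, with a median of 0.08 and 0 called. Of 16 members whose nearest protein-coding gene was on a list of imprinted genes, 4 were tested: MEG9, LOC107133071 and LOC112449316 beside GNAS, and LOC112446420, which overlaps COPG2 on the opposite strand. All 4 had positive log2 fold changes (median 0.10, 0 called), with the exceptions given for MEG9.

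Between the sexes, 0 of 654 lncRNA genes passed at an adjusted p under 0.05 in edgeR's test (background 0.0472% of all genes, 8 of 16946), and DESeq2 and limma voom called 0 as well. At an unadjusted p under 0.05 there were 27 (4.13%, background 3.3%), 18 higher in males and 9 in females. No background was taken for each direction, so the split cannot be read as a trait of lncRNA genes. LOC107131975, opposite in strand to the overlapping SSH3, was between 0.527 and 0.789 CPM in the 5 females and between 1.00 and 1.67 CPM in the 6 males, a log2 difference of 0.86 ± 0.22 (SE; edgeR adjusted p = 0.999). These groups did not overlap. LOC100848689, which spans MIR125B-1, had a female mean of 158 ± 38.7 CPM (SD, n = 5) and a male mean of 232 ± 23.7 CPM (SD, n = 6). The ranges of the 2 sexes met at 208 CPM. Its log2 difference was 0.53 ± 0.14 (SE; edgeR adjusted p = 0.999).

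LOC112441868, LOC100849865, LOC101906779 and LOC101906850 were the next genes with higher values in males, with log2 differences of 0.98 to 1.22. In the other direction, LOC104971979 had a female mean of 0.835 ± 0.279 CPM (SD, n = 5) and a male mean of 0.376 ± 0.117 CPM (SD, n = 6). LOC101905702, LOC101906522, LOC104970566 and LOC104975119 were also lower in males, and LOC104970566 went from -0.83 to -0.49 without control 1. For LOC104975119, LOS 2 and LOS 3 were at 5.80 and 6.25 CPM. Its other females were at 1.78 to 1.96 CPM, and its males at 1.34 to 1.87 CPM.

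Position relative to protein-coding genes was known for all members. Of the 2916, 1133 overlapped their nearest protein-coding row, 979 of them on the opposite strand and 154 on the same strand. A further 665 lay within 5 kb, 691 between 5 and 50 kb and 427 at 50 kb or more. The median gap of those that did not overlap was 11813 bp. Covariation was measured for the 654 tested members, each with its nearest tested protein-coding gene, as the correlation of log2 CPM over the 11 libraries. For 554 of them that gene was also the nearest protein-coding row of any level. The same was done for the 11974 tested autosomal protein-coding genes, which gave 8131 pairs with each pair counted once. The p-values were adjusted over all 8785 pairs.

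Of the lncRNA pairs, 14 of 654 (2.14%) passed at an adjusted permutation p under 0.05 (background 1.1% of all pairs, 1.02% of protein-coding pairs), 13 with positive and 1 with negative r. The median r was 0.187 over lncRNA pairs and 0.111 over protein-coding pairs, and r was positive in 63.8% and 59.8% of them. Of the 14 called pairs, 11 overlapped, among 277 overlapping pairs. With overlapping pairs left out, 1 of 377 lncRNA pairs passed, against 51 of 7232 protein-coding pairs. The count of 14 fell with each library left out. It was 0 without LOS 1, 1 without control 2, 2 without LOS 3 and 3 without LOS 6. Without any other library it was 4 to 8. Called protein-coding pairs fell too, from 83 to 9, 8, 33 and 21 in the same order. Without any other library they numbered 14 to 52. With Spearman's rho in place of r, 2 lncRNA pairs passed, against 14 of 8131 protein-coding pairs.

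Arrangement went with the size of r. Pairs that overlapped on the same strand had a median r of 0.372 for lncRNA pairs (n = 86) and 0.216 for protein-coding pairs (n = 142). Pairs that overlapped on opposite strands had medians of 0.157 (n = 191) and 0.10 (n = 757). Divergent pairs had medians of 0.187 (n = 177) and 0.146 (n = 1837), and convergent pairs 0.0425 (n = 34) and 0.0542 (n = 1860). For 116 lncRNA genes that start within 1 kb of a divergent neighbour the median was 0.194 with 1 called. For 669 such protein-coding pairs it was 0.162 with 8 called. All pairs share the same 11 libraries and their depth, and the sources used here do not state whether the authors' counting used strand, so in overlapping pairs part of the covariation can be the same reads.

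The pair with the highest r was LOC107132589 (chr7:1306538-1308935) and RNF130, the gene of a membrane ubiquitin ligase, in which the lncRNA row lies on the same strand. The lncRNA spanned 7.32 to 13.5 CPM in controls, against 6.39 to 18 CPM in LOS, and RNF130 from 35.7 to 56.9 and from 32.0 to 71.7 CPM. LOS 1 was lowest in both, and LOS 4 and LOS 6 were highest in both. Pearson's r was 0.958 (adjusted permutation p = 0.0125) and Spearman's rho was 0.936 (adjusted permutation p = 0.0527). Without the 2 libraries farthest from the median r was 0.947.

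LOC100847686 overlaps PRMT8 on the opposite strand. It was at 4.72, 18.3, 3.32, 4.42 and 1.97 CPM in controls and spanned 0.656 to 10.0 CPM in LOS libraries, and PRMT8 ran from 1.36 to 9.71 CPM and from 0.574 to 5.94 CPM. Control 2 was highest and LOS 1 lowest in both genes. Pearson's r was 0.956 (adjusted permutation p = 0.0155) and rho 0.964 (adjusted permutation p = 0.0220), and r was 0.876 without the 2 farthest libraries.

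LOC101906451 overlaps MASP1, the gene of a protease of the lectin complement pathway, on the opposite strand. It spanned 1.29 to 2.42 CPM in controls, against 0.301 to 2.27 CPM in LOS, while MASP1 ran from 43.8 to 131 CPM and from 8.73 to 112 CPM. LOS 3 was lowest in both. Pearson's r was 0.947 (adjusted permutation p = 0.0176) and rho 0.882 (adjusted permutation p = 0.0845), with r = 0.898 without the 2 farthest libraries. The log2 fold changes between groups were -0.90 and -1.14.

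The 1 called pair that was divergent was LOC101903752 (chr14:35442105-35459167) and MSC, the gene of the transcription factor musculin, whose rows are 130 bp apart. The lncRNA was at 4.72, 1.73, 4.07, 5.79 and 4.37 CPM in controls and MSC at 4.38, 1.97, 4.54, 3.88 and 5.08 CPM. In LOS libraries the lncRNA ran from 1.25 to 4.59 CPM and MSC from 1.32 to 6.23 CPM. Control 2 was the lowest control in both genes, and LOS 4 the lowest and LOS 1 the highest LOS library in both. Pearson's r was 0.925 (adjusted permutation p = 0.0212) and rho 0.827 (adjusted permutation p = 0.144), with r = 0.863 without the 2 farthest libraries.

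Among the other called pairs, LOC112444348 lies within the calcium channel gene CACNA1H on the same strand (r = 0.934) and LOC112445939 within LOC784007 (r = 0.931). LOC104974070 overlaps FABP5, a fatty acid binding protein gene, on the opposite strand (r = 0.904), and LOC112442713 overlaps SPHK1, a sphingosine kinase gene (r = 0.884). LOC101907813 and LOC100848263 (r = 0.882) and LOC112442254 and CMIP (r = 0.876) also overlap. LOC101904714 and IL7, named above, had an r of 0.812, which was 0.541 without the 2 farthest libraries. The 2 pairs called on the same strand without overlap were LOC100848091 with LOC100848804 (r = 0.903) and LOC101904622 with LRRC1 (r = 0.894). In 6 of the 14 called pairs the lncRNA gene was under 1 CPM on average.

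The single negative call was LOC101905049 (chr29:44820317-44857334), which overlaps C29H11orf80 on the opposite strand. The lncRNA was at 71.4, 79.6, 51.5, 95.3 and 45.7 CPM in controls and the coding gene at 6.61, 3.55, 7.05, 4.03 and 7.61 CPM. In LOS the lncRNA ran from 31.5 to 79.8 CPM and the coding gene from 6.26 to 19.8 CPM, with the lowest lncRNA level and the highest coding level both in LOS 6. Pearson's r was -0.845 (adjusted permutation p = 0.0376) and rho -0.900 (adjusted permutation p = 0.0744), and r was -0.857 without the 2 farthest libraries. The next negative pairs, LOC112448807 with PPP3R1 (r = -0.801, and -0.28 without LOS 6), LOC101902922 with JADE1 (r = -0.779) and LOC104974443 with SPSB1 (r = -0.752), did not pass.

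**Figure D5:**
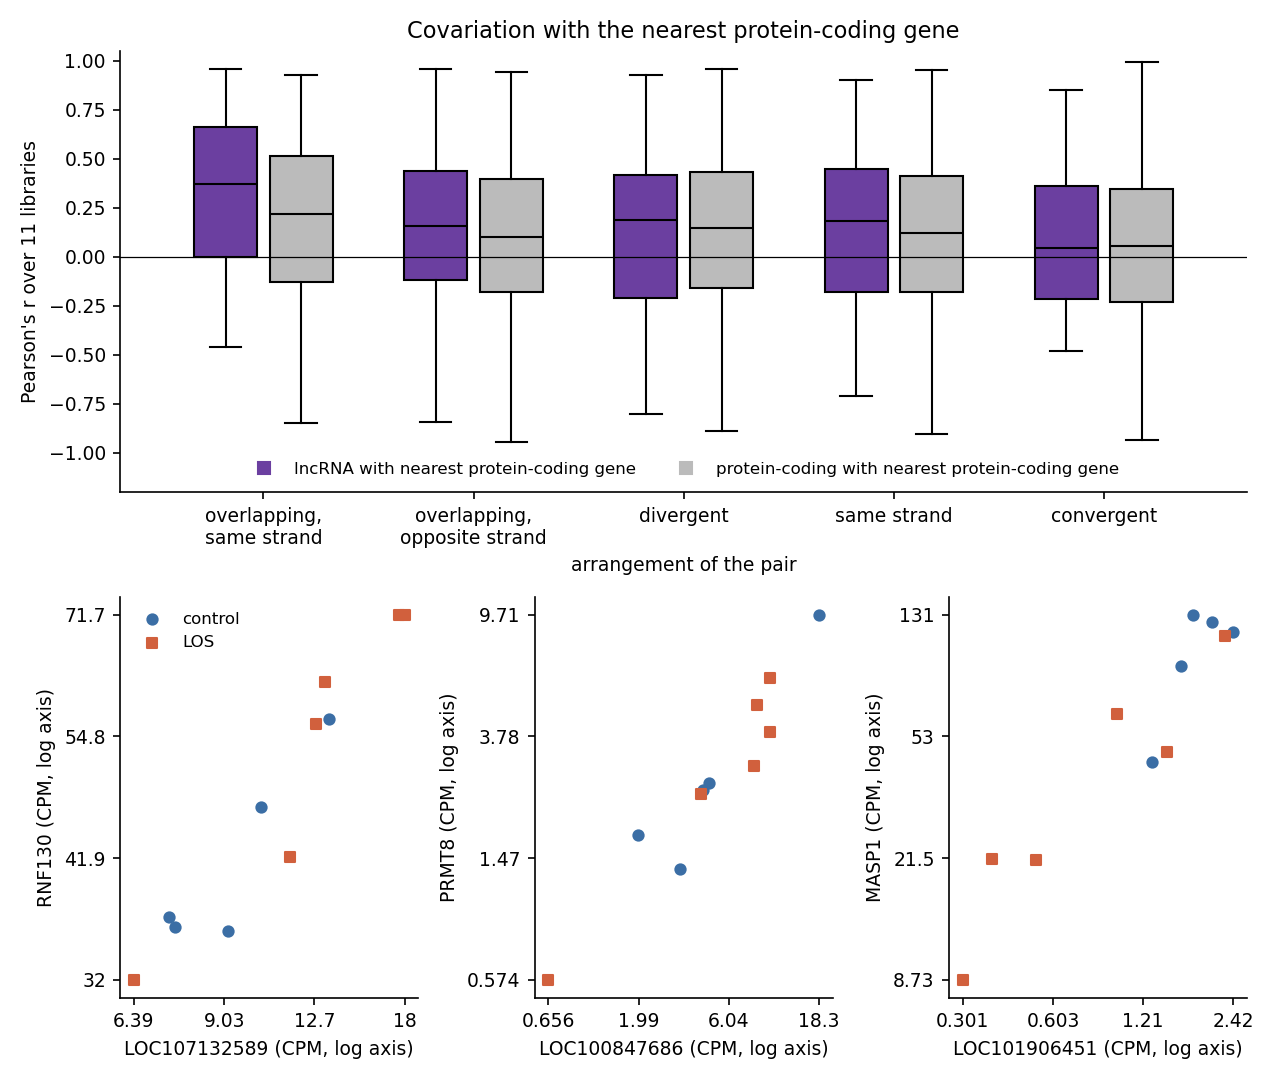
Top, Pearson's r over 11 libraries between each lncRNA gene (purple) or protein-coding gene (grey) and its nearest protein-coding gene, by arrangement, with the box from the first to the third quartile, the median as a line and whiskers to the farthest value within 1.5 box lengths. Bottom, CPM on log axes of the 3 pairs with the highest r (circles, 5 control; squares, 6 LOS). The same-strand overlapping lncRNA pairs have the highest median, 0.372. Each protein-coding pair is counted once.

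Because the fetuses are breed hybrids, the authors also deposited reads assigned to the maternal and the paternal allele. Of the members, 609 were in that table and 135 had enough allelic reads to test. In controls the 2 alleles differed in 17 of 135 (12.6%, background 9.02% of 5651 genes tested) at an edgeR adjusted p under 0.05, 10 towards the maternal and 7 towards the paternal allele. The maternal share, pooled over controls, had a median of 50.4% and ran from 36.6% to 75.7%. The labels name 1 breed cross for all fetuses, so the parent and the breed of an allele cannot be told apart.

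The allelic reads often were not the reads behind the gene's count. In 85 of the 135 lncRNA genes (63.0%) the allelic reads summed over 11 libraries exceeded the estimated counts, against 8.06% of 5512 protein-coding genes. LOC104975610, which overlaps RAB7A on the opposite strand, had 3651 allelic reads and 9 counts. LOC112446757, opposite in strand to the overlapping C1R, had 5293 allelic reads and 1 count, and LOC107131896, opposite in strand to the overlapping ADAM12, had 28063 allelic reads and 6 counts. For such genes an allelic share cannot be read as that of the lncRNA.

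Of the 50 lncRNA genes whose allelic reads did not exceed their counts, a subset set after seeing the data, 3 passed (6.0%, background 9.02%), each towards the maternal allele. LOC112447358 had maternal shares of 68.8%, 74.3%, 71.4%, 81.9% and 60.0% in the controls and between 69.6% and 100% in LOS libraries, on 3 to 382 allelic reads per library. LOC112446042, 4139 bp from the mesenchymal transcription factor gene TWIST2, had maternal shares of 59.6%, 77.5%, 53.7%, 74.8% and 73.8% in controls and between 55.8% and 80.8% in LOS, whereas pooled TWIST2 reads in controls were 48.0% maternal. LOC100296900, near MAGI2, was at 61.9% ± 3.78 (SD, n = 5) in controls and 56.5% ± 2.82 (SD, n = 6) in LOS, and pooled MAGI2 reads in controls were 49.9% maternal. All libraries of these 3 genes lay above an equal share. Allelic reads and estimated counts over the 11 libraries were 1056 and 25769 for LOC112447358. They were 6526 and 8920 for LOC112446042, and 900 and 1073 for LOC100296900. The median ratio of allelic reads to counts was 0.276 over protein-coding genes. Reads other than those behind the count can be present even below this limit, which was not tested. TUG1, with 636 to 1367 allelic reads per library, was at 47.9% ± 1.40 (SD, n = 5) and 49.1% ± 2.12 (SD, n = 6).

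No shift of the maternal share between LOS and control passed at an adjusted p under 0.05 in the 135 genes (edgeR, 0 called, background 0.0%). At an unadjusted p under 0.05 there were 12 (8.89%, background 4.34%), and 10 of these 12 were among the genes whose allelic reads exceeded their counts. LOC107132398, which starts 49 bp from the chromatin regulator gene KMT2E, had a maternal share of 53.2% ± 2.88 (SD, n = 5) in controls and 47.3% ± 4.36 (SD, n = 6) in LOS. Its allelic reads did not exceed its counts, and its edgeR adjusted p was close to 1.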

How the data were processed

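Per the labels, ribosomal RNA was removed before random-primed sequencing of 150-base read pairs, on an Illumina sequencer. The submitters' processing notes name HISAT2 2.1.0, Salmon 0.11.1, edgeR 3.36.0, Cufflinks 2.2.1, StringTie 2.1.4, Picard 2.22.4, GATK and the ARS-UCD1.2 build, without their order. The sources used here do not state whether counting used strand. The deposited main table holds expected counts per gene (71.2% of values whole), which were rounded to whole numbers; the authors' allelic table holds read counts per parental allele. A further table of adjusted values was not used.

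Group and sex were tested with edgeR 4.0.16 (quasi-likelihood test, sex + group, TMM, filterByExpr, Benjamini-Hochberg adjustment over all genes tested, threshold 0.05) in R 4.3.3. Single values per library were compared by exact permutation, and pairs by permutation with 100000 resamples on log2 CPM (prior count 2). Alternatives included DESeq2 1.42.0, limma 3.58.1, other filters and scalings, and leaving out each library. Scripts were tested on simulated data. Named genes are the 12 highest by mean CPM, the 10 smallest p per direction for LOS and 6 for sex, the pairs with extreme r or called, allelic extremes, and listed lncRNA and imprinted-neighbour genes. The members and lists were chosen with earlier results of these data known. Gene names and positions come from the files; the reference table is of another build and was not used for positions. No sequences are shown, and 1 gene chosen by these rules is not reported here.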

Additional observations from a re-analysis of the deposited data

Results flagged for a closer look

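In 11 of 128 sets of 5 or 6 values examined, 1 library stood apart from its group by Dixon's criterion. The criterion flags about 1 in 20 unselected sets by chance. Most of these sets were genes named for their values in the same libraries, so that rate is no background for them. Among controls, control 2 was high for LOC100847686 (18.3 CPM, next 4.72). Control 1 was high for LOC101906522 (1.01 CPM, next 0.271) and for LOC104970566 (2.23 CPM, next 0.987). Control 3 was low for LOC101905702 (0.271 CPM, next 0.472), and control 5 was high for LOC112442228 (2.26 CPM, next 1.75).

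In the LOS group, LOS 1 stood apart in 4 genes. It was high for C23H6orf52 (11.2 CPM, next 8.51), LOC100848091 (2.87 CPM, next 0.580) and LOC107131429 (1.48 CPM, next 0.950), and low for SNHG12 (8.85 CPM, next 16). LOS 5 was high for LOC107132793 (9.81 CPM, next 7.55), and LOS 6 was high for LOC112447358 (281 CPM, next 142).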

How the results depend on the processing

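The count of 0 lncRNA genes called held for LOS against control and for the sexes under each of the alternatives run (other size factors, filters, no assembled loci, DESeq2, limma voom, leaving out each library), and for LOS also without the sex term. With the replicate number as a block 0 were called for LOS and 0 for sex; the numbers did not pair the samples (same-number correlations of deviations from -0.166 to 0.257), and 2 of 5 controls correlated best with the LOS library of their own number. The share of counts ranged from -0.0454 to 0.00395 percentage points (LOS minus control) over left-out libraries, turning positive without control 2 (0.00395) or control 4 (0.000798). The difference in genes detected ranged from -33.6 to -19.8 over left-out libraries. It was -8.63 at 5 CPM (exact permutation p = 0.0368) and -8.07 at 0.1 CPM (exact permutation p = 0.807). Called lncRNA pairs numbered 26 of 654 on residuals after sex and group and 2 of 654 by Spearman's rho. They numbered 7 of 456 at a mean of 1 CPM, 1 of 377 without overlaps and 0 to 8 of 654 over left-out libraries. Called protein-coding pairs numbered, in this order, 197 of 8131, 14 of 8131, 85 of 7724, 51 of 7232 and 8 to 52 of 8131. The permutation of residuals takes them as exchangeable, which they are not after sex and group are fitted. Both counts on residuals can therefore be too high. Allele calls numbered 3 among genes whose allelic reads did not exceed counts and 9 among genes that overlap no protein-coding row, both chosen after seeing the data, and 13 to 18 over left-out libraries. MEG9's log2 difference turned to -0.13 under the replicate block and ranged from -0.0396 to 0.242 over left-out libraries, below 0 without control 1, control 3, LOS 1 or LOS 5. Among 65 named values, 982 refits kept direction and side of the threshold, 137 (all of pair correlations) no longer passed and these 5 reversed. Of the 982, 485 were log2 differences between groups and 195 between sexes. None of those had passed, so little room was left to change side. Pair correlations kept their side in 146 of 283 refits and lost the call in 137. These refits cover 17 pairs, among them the negative pairs that had not passed. Depth limits the comparison, since 2010 of 2916 lncRNA genes never reached 10 counts in a library and 2262 were not tested. The cause of the other changes was not tested.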
